A study of Mus musculus with 6 samples.

Results

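Sox1, Sox3, Sox14 and Sox21 are the SOXB genes of the mouse other than Sox2. Their open chromatin was taken from ATAC-seq peak lists as every peak that touched the gene body or the 50 kb on either side of it (GENCODE M21 gene models, GRCm38). When the peaks of all libraries that overlapped by 1 bp or more were merged, the windows of these 4 genes held 29 of the 119719 merged regions of the series. Sox1 (ENSMUSG00000096014.1, chr8:12395295-12400126, plus strand) had 11 regions, Sox3 (ENSMUSG00000045179.9, chrX:60891366-60893430, minus strand) 6, Sox14 (ENSMUSG00000053747.9, chr9:99874106-99876170, minus strand) 8 and Sox21 (ENSMUSG00000061517.8, chr14:118233232-118237030, minus strand) 4. The window of Sox2 (ENSMUSG00000074637.7, chr3:34650405-34652461, plus strand), which served as the comparison, had 20.

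SOX proteins bind DNA through an HMG box. In the SOXB group, SOX1, SOX2 and SOX3 (subgroup B1) act mainly as transcriptional activators that keep neural progenitors undifferentiated and can stand in for one another in many settings, whereas SOX14 and SOX21 (subgroup B2) act mainly as repressors, and SOX21 is known to counteract B1 factors as progenitors leave the cycle. Sox2 is the B1 gene that adult neural stem cells (NSCs) of the subependymal zone (SEZ) are best known to depend on.

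All 6 libraries came from NSC cultures of the SEZ, the stem cell niche along the lateral ventricles, of 10-week-old mice whose SRR2 element, a Sox2 enhancer 3′ of the gene, had been removed with CRISPR-Cas9 (Srr2del/del). The 3 proliferating cultures (PROLIF, replicates 1, 2 and 4) had been grown in medium with EGF and FGF and then seeded on Matrigel in medium with FGF for 2 days in vitro (2 DIV), and the 3 differentiating cultures (DIFF, replicates 1, 2 and 4) were taken 1 day after mitogen withdrawal, with 2% serum added (2+1 DIV). Every library therefore carried the deletion, and the comparison asked which SOXB loci were open in mutant cells in each state, and not what the deletion did, because wild-type libraries were not analysed here. The labels give neither the sex of the mice, which bears on the copy number of the X-linked Sox3, nor which founder strain each culture came from, nor whether replicates were separate animals, so the p-values measure the spread between these cultures only.

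The lists held 59792 to 82552 peaks in PROLIF and 70578 to 87728 in DIFF on the assembled chromosomes, and the lowest summit in any list had 10 to 15 overlapping reads. A region without a peak was thus below the threshold of the caller and cannot be called closed, and in bulk chromatin fewer cells with an open site and less opening per cell cannot be told apart. The lists also differ in the input data numbers written in the peak names, with PROLIF 1, PROLIF 4 and DIFF 1 in a lower range and the other 3 in a higher one, so that the ranges cross the states, and differences within each range are given beside the main ones. What the numbers stand for is not stated. The lower end of the local background under the peaks, taken as percentile 1 of each list, was 2.85 to 3.63 reads in 5 libraries and 6.01 reads in DIFF 4. Single peaks could lie on a higher local background, as at Sox21 region 3 with 7.63 reads in PROLIF 4 and 21.0 in DIFF 4. The promoters of the stem or progenitor markers Sox2, Nes, Fabp7, Vim, Sox9, Olig2 and Egfr had a peak in every library, as did 3 of 4 neuron, 2 of 4 oligodendrocyte, 2 of 5 microglia and 1 of 4 endothelial promoters. Strength is given below as the percentile of a peak by −log10 p within its own list, or as fold enrichment of the summit over the local background. A percentile still depends on the length of its list, because further weak peaks raise the rank of a strong one, so differences in depth are not removed.

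The sequences directly upstream of 3 start sites are shown first, because all 250 bases lay under a peak in every library at Sox1 and Sox21 and 0 did at Sox14. That of Sox3 is not shown. They are read 5′ to 3′ on the strand of the gene from the RefSeq copy of GRCm38, with CpG dinucleotides in capitals. The positions are chr8:12395045-12395294 (plus strand) for Sox1, chr14:118237031-118237280 (minus strand) for Sox21 and chr9:99876171-99876420 (minus strand) for Sox14. The Sox21 stretch also overlaps an exon of the noncoding gene Gm4675.
Sox1 upstream: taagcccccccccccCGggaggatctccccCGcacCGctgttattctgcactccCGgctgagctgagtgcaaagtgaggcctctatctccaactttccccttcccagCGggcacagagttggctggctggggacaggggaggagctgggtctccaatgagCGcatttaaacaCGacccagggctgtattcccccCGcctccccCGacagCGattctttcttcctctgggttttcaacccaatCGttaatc
Sox21 upstream: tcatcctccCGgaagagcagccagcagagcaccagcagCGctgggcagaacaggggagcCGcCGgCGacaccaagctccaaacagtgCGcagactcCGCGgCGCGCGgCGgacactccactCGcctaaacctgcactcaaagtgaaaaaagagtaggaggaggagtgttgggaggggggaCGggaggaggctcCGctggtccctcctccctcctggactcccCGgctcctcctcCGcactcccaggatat
Sox14 upstream: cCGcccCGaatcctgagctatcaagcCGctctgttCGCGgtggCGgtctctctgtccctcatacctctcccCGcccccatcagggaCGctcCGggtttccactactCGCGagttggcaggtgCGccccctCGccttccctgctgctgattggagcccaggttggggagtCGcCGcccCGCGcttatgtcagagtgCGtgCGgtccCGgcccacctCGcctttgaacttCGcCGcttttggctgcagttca
Sox14 had 23 CpGs in this stretch, more than Sox1 with 11 and Sox21 with 17, and all were above the median of 8 over 21931 protein-coding genes. Its GC content of 65.6% was also the highest of the 3, beside 60% for Sox1 and 65.2% for Sox21. The stretch richest in CpGs was therefore the one that no peak reached.

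**Figure D1:**
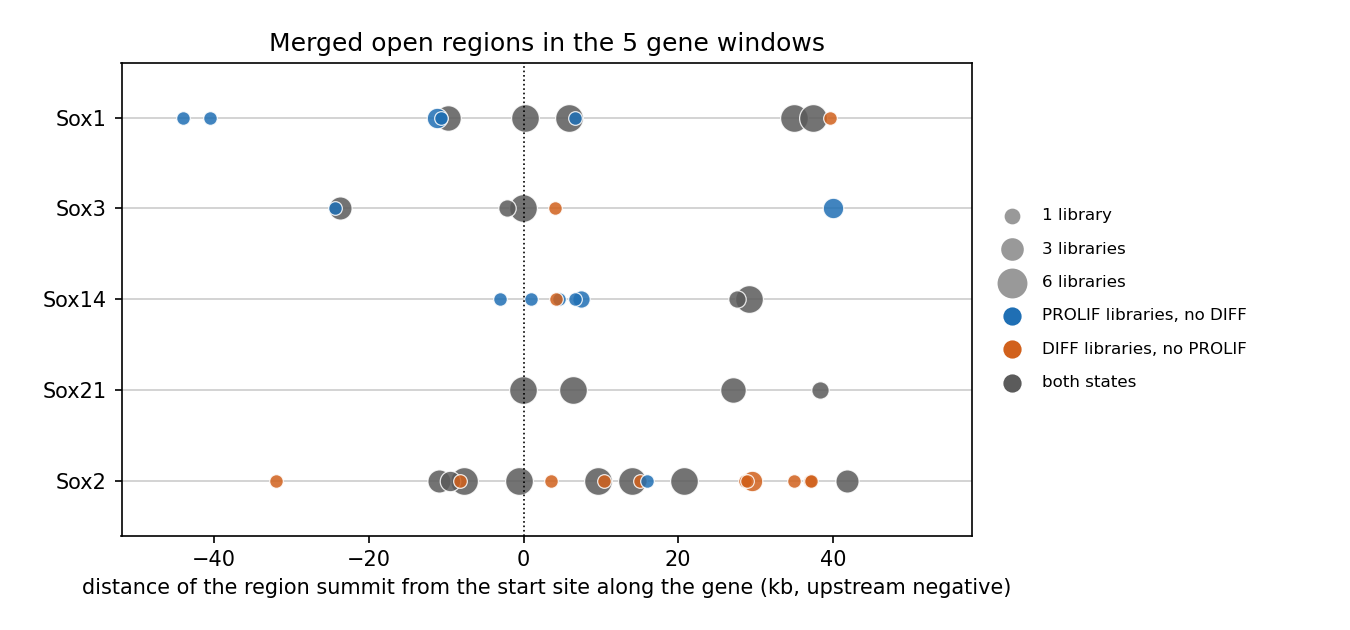
Summit of each merged region (points) by its distance from the start site in kb (horizontal axis, upstream negative), with 1 row per gene; point size gives the number of libraries with a peak and colour the states in which it was found. Sox1, Sox3 and Sox21 have a large grey point, a region in all 6 libraries, at their start site, and Sox14 has none within 20 kb.

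Promoters of the B1 genes Sox1 and Sox3 and of the B2 gene Sox21 were open in both states, and that of Sox14 was at or below the threshold of detection. A peak within 3 kb of a start site was present in all 6 libraries for 3 of the 4 genes, beside 64.4% of 21938 protein-coding genes, and 25.4% had none in any library. At Sox1, an activator of the neural progenitor programme, the promoter peak stood at percentiles 88.5, 82.0 and 77.2 in PROLIF 1, 2 and 4, and at 88.7, 94.1 and 88.6 in DIFF 1, 2 and 4. Every DIFF value lay above every PROLIF value, but the lowest DIFF value (88.6) was close to the highest PROLIF value (88.5), and the means of 82.6 ± 5.68 and 90.5 ± 3.14 (SD, n = 3 each) differed by 7.90 with p = 0.1 by a two-sided exact permutation test. That is the smallest p that 3 against 3 libraries allow (0.4 after Benjamini-Hochberg adjustment over Sox1, Sox2, Sox3 and Sox21). The difference was 5.83 within the lower and 9.37 within the higher range of input data numbers, and 26.0% of the 14126 genes whose promoter was in every list showed the same order, against 4.79% in the opposite order.

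The Sox3 promoter peak, the only shared region of that window, stood at percentiles 84.4, 77.4 and 73.7 in PROLIF and 82.9, 79.3 and 84.4 in DIFF, so that the states overlapped (difference 3.68, p = 0.4, exact permutation test, with 3.83 and 4.40 in the lower and higher number range). A second, weak site 2.20 kb upstream of Sox3 was listed in PROLIF 1 and DIFF 4 at percentiles 33.4 and 29.3. The promoter of Sox21, the B2 repressor, gave the highest values of the 4 genes, with 95.3, 87.3 and 89.2 in PROLIF and 92.3, 95.3 and 92.9 in DIFF, and these overlapped as well (difference 2.88, p = 0.4, exact permutation test, with 0.0598 and 6.79 in the 2 number ranges). The 3 genes were ordered Sox21, Sox1 and Sox3 by their median over the 6 libraries (92.6, 88.6 and 81.1), and neighbours in that order overlapped in their ranges of 87.3 to 95.3, 77.2 to 94.1 and 73.7 to 84.4. Sox2 itself ranked at 85.8, 85.2 and 79.1 in PROLIF and 88.5, 80.1 and 91.7 in DIFF, inside the span of the other B1 genes pooled over libraries. Within single libraries it ranked above both Sox1 and Sox3 in PROLIF 2, PROLIF 4 and DIFF 4, and between them in the others.

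At Sox14, the other B2 repressor, a peak was listed within 3 kb of a start site in 1 library only. In PROLIF 1, a 152 bp peak in the coding exon 0.938 kb downstream of the start had 13 reads at its summit and ranked at the percentile 9.76. A second weak peak, 247 bp wide with 11 reads at its summit in PROLIF 2, lay 3.04 kb upstream, just outside the 3 kb limit. No DIFF library listed a peak at either place.

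**Figure D2:**
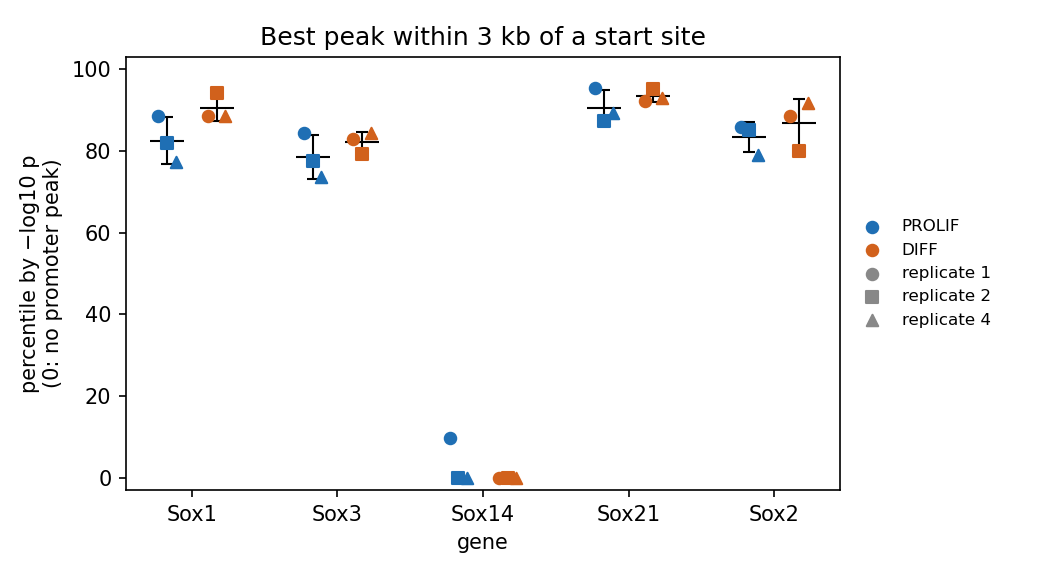
Percentile of the best peak within 3 kb of a start site (vertical axis, by −log10 p within each library; 0 means no peak) for the 4 genes and Sox2, with 1 point per library, the symbol giving the replicate number, and bars for mean ± SD of 3 libraries (not drawn for Sox14). Sox1, Sox3 and Sox21 lie between 73.7 and 95.3 in all libraries, and Sox14 has a single value above 0, of 9.76.

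The promoter regions of Sox3 and Sox21 were broad. The merged Sox3 region (chrX:60892555-60894738) ran over 2184 bp, from the coding sequence to beyond the start site and into the noncoding gene Gm14662, and only 0.593% of the 40102 regions shared by all libraries were as wide. PROLIF 1 and 2 covered 2031 and 2151 bp of it, PROLIF 4 1451 bp, and DIFF 1, 2 and 4 covered 1567, 1537 and 1479 bp, with PROLIF 4 below every DIFF library. The Sox21 promoter region (chr14:118236143-118237603) spanned 1461 bp, a width reached by 6.47% of shared regions, and the Sox1 promoter region (chr8:12394974-12396059) 1086 bp, reached by 22.2%.

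Within the Sox1 promoter region the summit, picked out after its values were seen, lay at +22, -66 and -108 bp from the start site in PROLIF 1, 2 and 4, and at +208, +209 and +248 bp in DIFF 1, 2 and 4. The 3 DIFF summits were all downstream of the 3 PROLIF summits, 272 bp further on average (p = 0.1, exact permutation test), and both ranges of input data numbers showed it (251 and 294.5 bp). Among shared regions, 11.1% had the DIFF summits all to one side of the PROLIF summits, and 1 of the 8 shared member regions did so, which is near that share. A shift of at least this size was found in 2.15% of shared regions, and in 1.07% together with such an order. The summits at Sox3 and Sox21 overlapped between states, and those at Sox21 stayed within -86 to -39 bp of the start site in every library.

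Of the 29 regions, 8 (27.6%) had a peak in all 6 libraries, beside 33.5% of all merged regions, and 12 (41.4%) had one in a single library, beside 29.6%. The shared regions were 4 at Sox1, 1 at Sox3, 1 at Sox14 and 2 at Sox21, and Sox2 had 5 of 20. Peaks of shared regions had a median of 64.5 reads at the summit and a median percentile of 78.4, those of single-library regions 15.5 reads and 12.9, close to the floor of the lists. PROLIF 1, the longest PROLIF list, gave 7 of the 12 single-library regions and each other library gave 1.

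**Figure D3:**
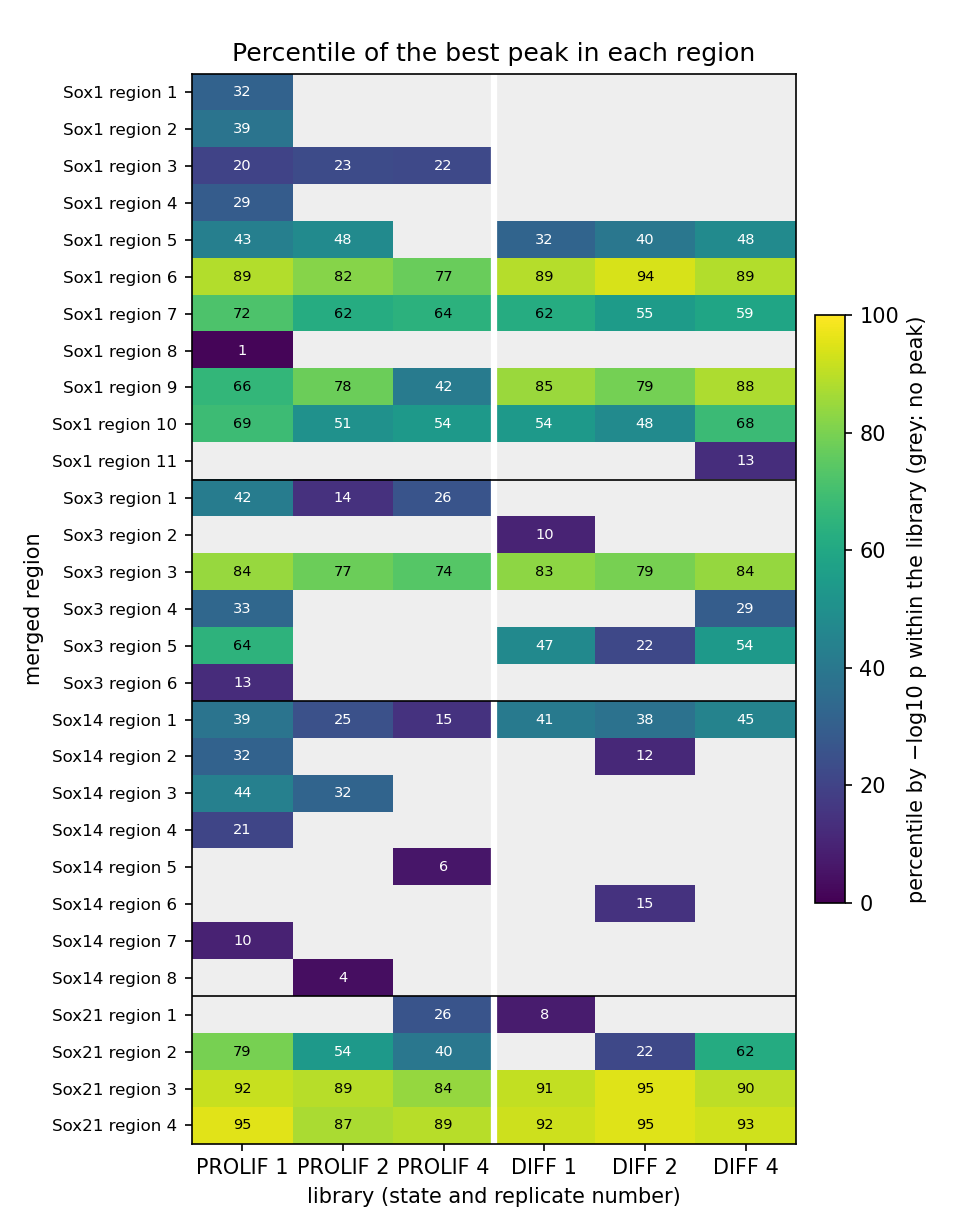
Percentile by −log10 p (colour and number) of the best peak of each library (columns) in each of the 29 merged regions (rows), with grey where the library lists no peak. Rows filled in all 6 columns are the 8 shared regions, and Sox1 region 3 and Sox3 region 1 are filled in the 3 PROLIF columns only.

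Regions whose peaks split all 6 lists by state were few. Sox1 region 3 and Sox3 region 1 had a peak in every PROLIF library and in no DIFF library, 2 of 29 regions, beside 1.79% of all merged regions, and 0 of 29 had the opposite pattern, beside 3.48%. Counted by gene, 2 of 4 windows held a PROLIF-only region, as 11.9% of protein-coding gene windows did, and 0 of 4 a DIFF-only region, as 24.1% did. Both were weak. Sox1 region 3 (chr8:12383985-12384236) lay 11.2 kb upstream of Sox1, where PROLIF 1, 2 and 4 had 17, 16 and 15 reads at the summit, fold enrichments of 3.52, 3.89 and 3.77 and percentiles of 20.2, 23.0 and 22.2. Sox3 region 1 (chrX:60853035-60853515) lay 40.0 kb downstream of the Sox3 start, in no annotated gene, with 20, 13 and 15 reads, fold enrichments of 5.29, 3.55 and 4.16 and percentiles of 41.8, 14.3 and 25.9.

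The 3 PROLIF peaks of Sox1 region 3 shared nearly the same summit, within 25 bp, whereas the summits of Sox3 region 1 were spread over 187 bp. Under the requirement that a peak cover at least 50% of the merged region, neither region kept its call, and with all lists shortened to 59792 peaks only the Sox3 region did. The summit windows of both are printed because no other region at these loci split the 6 lists cleanly by state. They are 201 bases of the plus strand centred on the strongest summit, chr8:12383983-12384183 and chrX:60853352-60853552, with capitals for the motifs searched.
Sox1 region 3: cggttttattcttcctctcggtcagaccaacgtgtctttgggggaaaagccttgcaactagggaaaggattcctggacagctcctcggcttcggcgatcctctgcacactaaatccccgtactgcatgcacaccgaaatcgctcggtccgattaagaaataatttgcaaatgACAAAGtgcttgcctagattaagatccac
Sox3 region 1: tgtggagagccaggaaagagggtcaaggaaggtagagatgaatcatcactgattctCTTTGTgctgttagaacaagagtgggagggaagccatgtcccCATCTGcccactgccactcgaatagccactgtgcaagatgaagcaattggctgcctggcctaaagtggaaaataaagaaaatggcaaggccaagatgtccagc
Each window holds 1 SOX hexamer, ACAAAG or its reverse complement CTTTGT, as 20.2% of all merged regions and 26.0% of PROLIF-only regions did, and the Sox3 window also holds the E-box CAGATG. The AP-1 heptamer TGACTCA, found in 27.8% of PROLIF-only regions and 5.76% of all merged regions, was in neither.

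Of the other 19 regions, PROLIF 1 alone listed 7, at percentiles up to 38.7, namely Sox1 regions 1, 2, 4 and 8, Sox3 region 6 and Sox14 regions 4 and 7. The other single-library sites were Sox1 region 11 (DIFF 4), Sox3 region 2 (DIFF 1) and Sox14 regions 5, 6 and 8 (PROLIF 4, DIFF 2 and PROLIF 2), none above the percentile 14.8. A pair of regions was missing from 1 library each. Sox1 region 5, 9.80 kb upstream near the start of Sox1ot, ranked at 43.2 and 48.0 in PROLIF 1 and 2 and at 32.1, 39.6 and 48.0 in DIFF 1, 2 and 4. Sox21 region 2, 27.1 kb downstream of the Sox21 start and near the start of the noncoding gene 4933431J24Rik, ranked at 79.3, 54.0 and 39.6 in PROLIF and at 21.8 and 61.7 in DIFF 2 and 4. Sox14 regions 2 and 3 and Sox21 region 1 had 2 libraries each and lay at percentiles between 7.64 and 43.6.

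A looser count leaned towards PROLIF when all 6 libraries were used. A peak in some PROLIF library and in no DIFF library marked 12 of the 29 regions (18.7% of all merged regions), and the reverse marked 3 (23.5%). Without PROLIF 1 the counts were 5 and 6 of the 22 regions then left. Leaving out a PROLIF library lowers the first count and raises the second by construction. The shares over all regions were not computed for that set, so the 2 counts have no background beside them. Sox3 region 5, 23.8 kb upstream of Sox3 and named after its values were seen, had peaks in DIFF 1, 2 and 4 at percentiles 47.5, 21.8 and 53.8 and in PROLIF 1 at 64.5, so that it became DIFF-only when PROLIF 1 was left out.

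The number of peaks in the windows did not differ between states beyond the spread of the libraries. The Sox1 window had 10, 6 and 5 peaks in PROLIF 1, 2 and 4 and 5, 5 and 6 in DIFF 1, 2 and 4 (p = 0.7, exact permutation test). The Sox3 window had 5, 2 and 3 in PROLIF and 5, 2 and 3 in DIFF (p = 1, exact permutation test). These counts include pieces of 1 region, because the Sox3 promoter region was listed as 3 peaks in DIFF 1 and 2 in PROLIF 4. Covered length, which splitting does not move, was 3134, 2468 and 1581 bp in PROLIF and 1859, 1650 and 1875 bp in DIFF (p = 0.4, exact permutation test). Sox14 had 5, 3 and 2 against 1, 3 and 1 (p = 0.3, exact permutation test). Sox21 had 3, 3 and 4 against 3, 3 and 3 (p = 1, exact permutation test). The states overlapped in each of the 4 windows.

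Together the 4 windows held 23, 14 and 14 peaks in PROLIF and 14, 13 and 13 in DIFF, with means of 17 ± 5.20 and 13.3 ± 0.577 (SD, n = 3 each; p = 0.3, exact permutation test), and the high value was PROLIF 1. The difference, DIFF minus PROLIF, was -3.67 peaks, -0.667 without PROLIF 1, and -4.5 and -1 within the lower and higher number range. Covered length went the same way, with 11792, 9462 and 7872 bp in PROLIF and 8423, 8723 and 8849 bp in DIFF (p = 0.5, exact permutation test), and the difference was -1044 bp with and -2 bp without PROLIF 1. As a share of each list the 4 windows took 2.79, 2.11 and 2.34 peaks per 10000 in PROLIF and 1.97, 1.84 and 1.48 in DIFF, which did not overlap (p = 0.1, exact permutation test, the smallest possible). By this measure 9.64% of single gene windows with any peak had every DIFF library below every PROLIF library and 9.45% the opposite, and the DIFF 4 list, with the lowest share, was also the longest.

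In the Sox2 window the mean went the other way, with 8, 7 and 6 peaks in PROLIF and 9, 11 and 16 in DIFF. Every DIFF library exceeded every PROLIF library, as in 8.43% of 20645 gene windows with any peak (1.62% showed the opposite order), and the difference of 5 peaks had p = 0.1 by exact permutation (0.5 adjusted over 5 genes, with 2 and 6.5 peaks in the 2 number ranges). The excess of Sox2 over the 4 genes together, a contrast formed after the values were seen, was -15, -7 and -8 peaks in PROLIF and -5, -2 and 3 in DIFF, a difference of 8.67 (p = 0.1, exact permutation test). DIFF 4, with the highest lower end of the background and the longest list, gave the 16, and without it the Sox2 difference was 3 peaks. With the strongest 20000 peaks of each list the Sox2 difference was 0.333 and the excess over the 4 genes 0, and with a window of 20 kb they were 1.33 and 3.67. Neither p could pass 0.05 with 3 against 3 libraries.

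**Figure D4:**
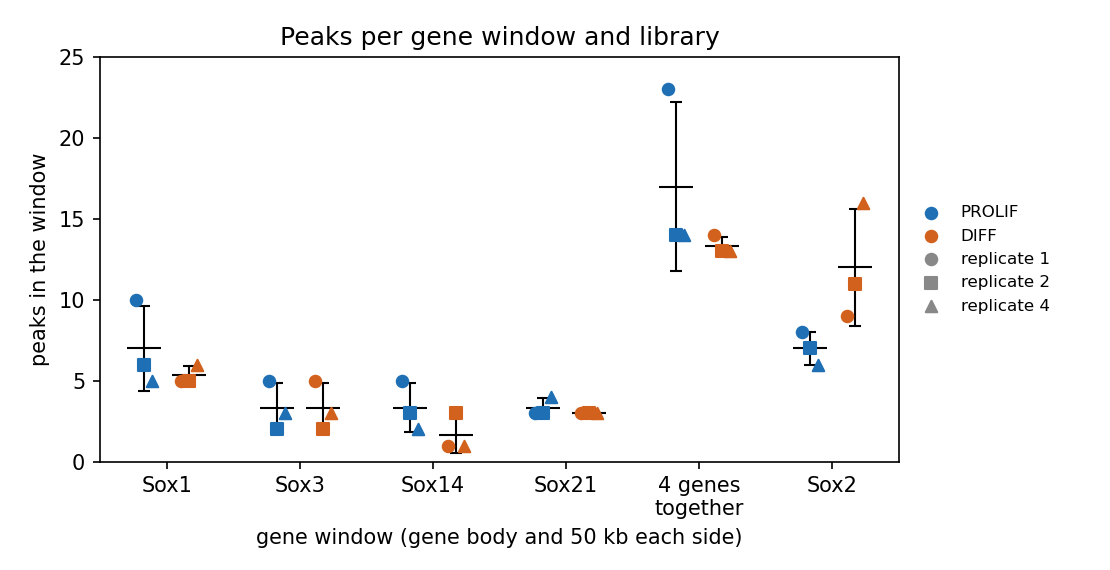
Number of peaks (vertical axis) in the window of each gene, in the 4 windows together and in the Sox2 window, with 1 point per library (colour for state, symbol for replicate number) and bars for mean ± SD of 3 libraries. PROLIF 1 is the high point of the 4 genes together with 23 peaks, and only in the Sox2 window do all DIFF points (9 to 16) lie above all PROLIF points (6 to 8).

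Among regions with a peak in all 6 libraries, fold enrichment could be tested (limma on quantile-normalised log2 fold enrichment, Benjamini-Hochberg over 40102 regions). Of these, 6.92% were higher and 8.90% lower in DIFF at an adjusted p under 0.05, and without normalisation the calls were 1005 higher and 2626 lower in place of 2774 and 3569. None of the 8 shared regions of the 4 genes passed by limma, 1 had an unadjusted p under 0.05, as 28.7% of all shared regions did, and none of the 5 at Sox2 passed either. Their median log2 difference was 0.13, beside 0.03 over all tested regions, with 6 higher and 2 lower in the mean of DIFF.

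The distal Sox1 region 9 came nearest. It lies 35.0 kb downstream of the Sox1 start (chr8:12429785-12430763) over an exon of the noncoding gene Sox1ot, which overlaps Sox1. Fold enrichment at its summit was 6.62, 8.35 and 4.44 in PROLIF 1, 2 and 4 and 8.59, 8.79 and 9.12 in DIFF 1, 2 and 4. On the quantile-normalised log2 scale the values were 2.45, 3.07 and 2.31 in PROLIF and 3.24, 3.03 and 3.22 in DIFF, so PROLIF 2 lay within the DIFF range and the other 2 PROLIF libraries below it. The difference was 0.55 ± 0.19 (SE, n = 3 each, limma adjusted p = 0.0539). It was called when PROLIF 2 was left out (0.78, limma adjusted p = 0.00788) and when −log10 p took the place of fold enrichment (limma adjusted p = 0.0124). A replicate term, for numbers whose meaning the labels do not give, called it too (limma adjusted p = 0.0283). In the other alternatives the limma adjusted p was between 0.071 and 0.216. The difference was 0.86 within the lower and 0.05 within the higher range of input data numbers.

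Sox1 region 7 (5.86 kb downstream, 1.03 kb past the gene end) and Sox14 region 1 (29.1 kb downstream) were the 2 shared regions whose states did not overlap on that scale, at a background of 16.6% of shared regions with DIFF above and 15.5% with DIFF below. Region 7 of Sox1 had 2.51, 2.53 and 2.84 in PROLIF and 2.42, 2.31 and 2.15 in DIFF (a log2 difference of -0.33 ± 0.19 SE, limma adjusted p = 0.258). Region 1 of Sox14, a 153 bp site (chr9:99846919-99847071) in no annotated gene, where 99.8% of shared regions were at least as wide, had 2.08, 2.03 and 1.94 in PROLIF and 2.32, 2.26 and 2.13 in DIFF (0.23 ± 0.18 SE, limma adjusted p = 0.439). It was the one Sox14 site listed in every library, with 13 to 28 reads at its summit. The Sox1 promoter region overlapped between states on this scale, unlike its percentile, with a difference of 0.16 ± 0.14 (SE, limma adjusted p = 0.517). Sox1 region 10, the Sox3 promoter region and the Sox21 regions 3 and 4 overlapped as well, with limma adjusted p between 0.374 and 0.825.

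**Figure D5:**
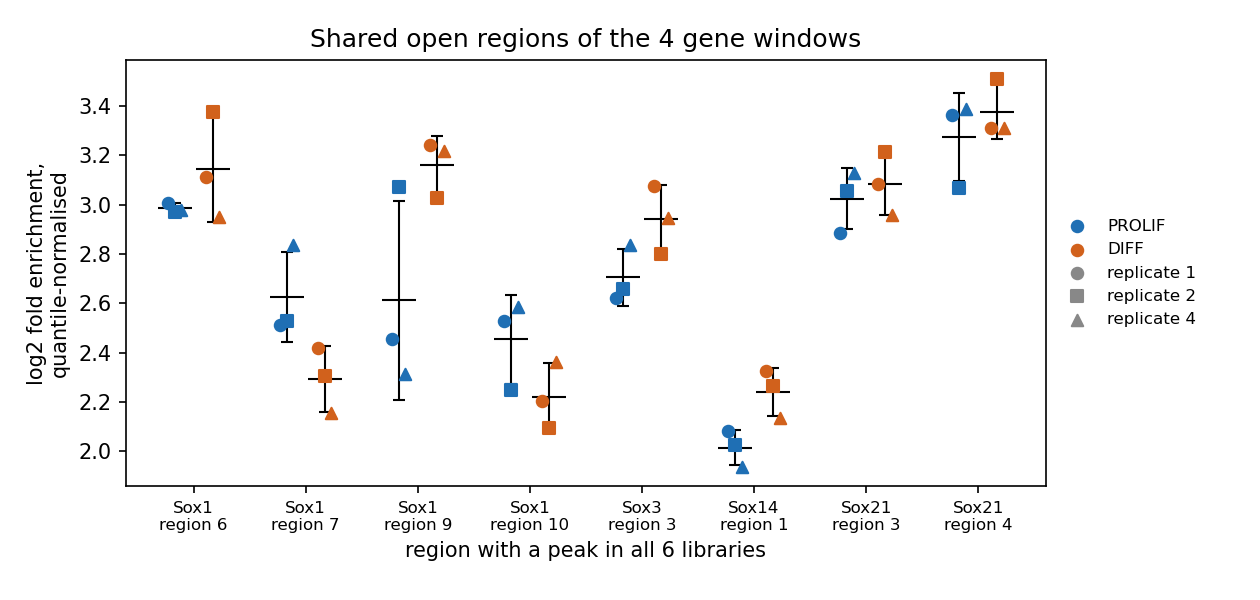
Quantile-normalised log2 fold enrichment (vertical axis) of the 8 regions with a peak in all 6 libraries, with 1 point per library (colour for state, symbol for replicate number) and bars for mean ± SD of 3 libraries. At Sox1 region 9 PROLIF 2 (3.07) lies among the DIFF points and PROLIF 1 and 4 (2.45 and 2.31) below them.

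A pair of distal shared regions held several SOX hexamers close to the summit, and they are printed with Sox1 region 9. All 3 are 201 bases of the plus strand centred on the strongest summit, chr8:12430180-12430380, chr8:12432642-12432842 and chr14:118230548-118230748, with the motifs in capitals.
Sox1 region 9: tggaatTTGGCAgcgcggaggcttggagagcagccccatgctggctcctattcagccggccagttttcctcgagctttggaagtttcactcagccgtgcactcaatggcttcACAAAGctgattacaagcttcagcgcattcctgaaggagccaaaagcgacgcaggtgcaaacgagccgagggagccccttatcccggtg
Sox1 region 10: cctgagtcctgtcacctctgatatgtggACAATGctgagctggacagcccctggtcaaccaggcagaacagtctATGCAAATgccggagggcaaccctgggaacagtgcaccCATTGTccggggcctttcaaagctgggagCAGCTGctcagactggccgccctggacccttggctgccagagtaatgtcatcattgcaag
Sox21 region 3: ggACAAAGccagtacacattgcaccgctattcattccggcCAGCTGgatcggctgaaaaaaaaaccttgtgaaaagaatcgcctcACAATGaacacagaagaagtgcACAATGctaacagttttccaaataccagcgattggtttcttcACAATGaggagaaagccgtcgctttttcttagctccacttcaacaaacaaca
Sox21 region 3 (chr14:118230136-118232112), 2.58 kb beyond the 3′ end of Sox21 in no annotated exon, ranked close to the promoter of that gene. Its percentiles were 91.6, 89.3 and 84.0 in PROLIF and 90.9, 95.0 and 90.1 in DIFF, and its width of 1977 bp was reached by 1.05% of shared regions. The SOX hexamer ACAATG occurs 3 times in its window, 15 bp to the left and 7 and 49 bp to the right of the summit, together with ACAAAG and the E-box CAGCTG, and only 0.0785% of all merged regions had 3 or more copies of ACAATG in such a window. Sox1 region 10, 37.4 kb downstream of the Sox1 start (chr8:12432599-12433038), kept its summit within 37443 to 37450 bp of the start site in every library. Its window holds ACAATG or its reverse complement 2 times, the POU octamer ATGCAAAT between them, 26 bp to the left of the summit, and CAGCTG, and 0.0468% of all merged regions had these 3 motifs together. SOX and POU factors are known to bind neighbouring sites at neural enhancers. These combinations were picked out after the sequences were seen, and a match of letters is not evidence of binding.

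Over all 29 member windows the motifs were read on either strand, up to 100 bp from the summit, and most were about as frequent as elsewhere. ACAATG was in 3 regions (10.3%, beside 11.6% of all merged regions), ACAAAG in 6 (20.7%, beside 20.2%), CAGATG in 5 (17.2%, beside 17.3%) and CAGCTG in 7 (24.1%, beside 19.6%). ATGCAAAT was in 2 (6.90%, beside 1.90%), the Sox1 promoter and Sox1 region 10. TGACTCA was in 1 (3.45%, beside 5.76%), the NFI motif TTGGCA in 1 (3.45%, beside 18.3%) and the CTCF core motif in 0 (beside 1.98%). Of the 3 upstream stretches only that of Sox14 held any of the 8 motifs, TTGGCA, which occurs in 12.1% of such stretches.

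The SOX family as a whole showed no called change at its promoters. Promoter peaks were in all 6 libraries for 14 of 20 Sox genes, beside the 64.4% of all protein-coding genes given above, in none for Sry, the testis-determining gene, and Sox10, a factor of the oligodendrocyte and neural crest lineages, and in some for Sox7, Sox14, Sox15 and Sox18. None of the 19 shared promoter regions of the 14 genes passed the limma test, and their median log2 difference was 0.02. Of 9 genes for partners of SOXB proteins, 7 had promoter peaks in every library, among them the POU genes Pou3f1 to Pou3f4 and Pax6, and the pluripotency genes Pou5f1 and Nanog had none. Of 13 regions at those promoters, limma called 2 higher and 1 lower in DIFF, where 15.8% of all shared regions were called in either direction. Regions within 3 kb of any annotated start site of a gene counted here, so that a called region can lie inside the gene. The remodeller gene Chd7 had 1 called region (chr4:8838208-8838982) at 0.81 ± 0.19 (SE, limma adjusted p = 0.0071). Its others, at chr4:8689764-8692316 and chr4:8750427-8751123, stood at 0.15 and -0.29 and were not called. Pou2f1 had 1 region called in each direction. Of 7 genes known as SOXB targets, 6 had promoter peaks in every library and Fgf4 had none, and 1 of their 12 regions was called. That was chr3:87973801-87974859 of Nes, the intermediate filament gene of neural stem cells. It was lower in DIFF by a log2 difference of -0.73 ± 0.19 (SE, limma adjusted p = 0.0149). The other Nes region, chr3:87970745-87971437, stood at 0.40 and was not called (limma adjusted p = 0.179).

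Among the promoters most like those of the members over the 6 percentiles were, for Sox1, Acot1, Atp9b and Cyfip2 (Euclidean distances 3.70, 4.07 and 4.35), for Sox3, Stmn1 and Dgke (2.43 and 2.57), and for Sox21, Scyl2, Trim59 and Med14 (2.57, 2.66 and 2.79). Within a distance of 5 there were 6 genes for Sox1, 35 for Sox3 and 139 for Sox21. Such counts depend on how many promoters lie at that level, and no background for them was computed.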

How the data were processed

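ATAC-seq was analysed in 6 libraries, 3 PROLIF and 3 DIFF. Per the labels and the study's methods, the authors clipped read pairs with Cutadapt, trimmed them with Trimmomatic, mapped them with Bowtie2 to GRCm38 (mm10), marked duplicates and called narrow peaks with MACS2 in each library at an FDR of 0.05, without pooling replicates. Tool versions, read extension, the transposase shift and the blacklist are not given in the sources used here. The deposited lists give fold enrichment (ratio to the local background) and −log10 p and −log10 q of each summit, with a score derived from −log10 q by the caller. They hold no read counts per region, so that regions were compared by presence, rank and fold enrichment and not by a count test. The labels call the material RNA although the molecule is genomic DNA, and the series text gives 3 DIV for the proliferating cells where the sample labels give 2 DIV, which are used here.

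Peaks on the assembled chromosomes were merged at 1 bp of overlap. Overlapping reads at a summit were recovered from fold enrichment and p, and 99.988% to 100% of the solved values per library were whole within 0.02 reads. States were compared over libraries with a two-sided exact permutation test (smallest p 0.1) and shared regions by limma 3.58.1 in R 4.3.3 (log2 fold enrichment of the best peak, quantile normalisation, trended variance). Other steps used Python 3.11.15, scipy 1.17.1 and samtools 1.23.1. Merging and the limma fit were tested on simulated data. The members and gene lists were chosen with earlier results of these data known. Regions named in full were those in 1 state only, in all 6 libraries or within 3 kb of a member's start site, and the genes most alike were the 3 with the smallest distance over 6 promoter percentiles. Some genes that these rules and lists name are not reported here. Alternatives were stricter q values (0.01 and 0.001), lists cut to equal length or to 20000 peaks, windows of 20 and 100 kb, a promoter of 1 kb, a cover of 50%, a replicate block, other scales of the fit and each library left out. The planned comparison of the proteins was not run.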

Additional observations from a re-analysis of the deposited data

How the results depend on the processing

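Of 464 recomputed values, 14 changed sign, 3 passed a threshold that the reported value had missed, and 15 others moved. A count moved if it changed by over 1.5 times or went to or from 0. A difference within a range of input data numbers moved if it shifted by at least the pooled SD of the states. The exact tests could not pass 0.05 in any setting, so that their p-values say nothing of stability. With the strongest 20000 peaks of each list, the DIFF minus PROLIF difference of the 4 windows became 0.333 peaks and 261 bp, that of Sox1 0.667 peaks and 435 bp, that of Sox2 0.333 peaks and -177 bp and that of Sox2 over the 4 genes 0 peaks and -438 bp, with 0 PROLIF-only and 4 shared regions left. A window of 100 kb gave 0.333 peaks and 829 bp for Sox1 and 20 shared regions, and a window of 20 kb gave 1 PROLIF-only and 5 shared regions. Lists of equal length left 1 PROLIF-only region of 21, beside 3.31% of all merged regions. A cover of 50% left 0 of 29, beside 2.41%. By fold enrichment in place of −log10 p the Sox2 promoter percentile changed by -4.57 in DIFF. With −log10 p in place of fold enrichment, limma called 1 member region higher in DIFF, and Sox2 region 6 differed by 0.18. The libraries of the higher input data numbers, a split chosen after seeing the data, gave 383 bp for Sox1 and 6.79 percentile points for the Sox21 promoter. The cause of these changes was not tested, apart from the fewer peaks or shorter windows that some settings leave by construction.

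With each library left out in turn, the difference of the 4 windows ranged from -5.17 to -0.667 peaks and from -1962 to -2 bp, that of Sox1 from -677 to 281 bp (above 0 without PROLIF 1), PROLIF-only regions from 2 to 3, DIFF-only regions from 0 to 1, member regions called higher by limma from 0 to 1, and Sox21 region 3 from -0.0061 to 0.12 on the log2 scale. Of all merged regions, 2.15% to 3.58% were PROLIF-only and 3.81% to 6.41% DIFF-only with 1 library left out. Over all shared regions the limma calls ranged from 1580 to 2485 higher and 2510 to 3025 lower with 1 library left out, and were 4258 and 4736 with −log10 p.

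The labels do not say what a shared replicate number stands for, and the libraries were not treated as pairs. Deviations of same-numbered libraries from the state means correlated at 0.073, 0.122 and 0.105 over 40102 regions, and those of different numbers at -0.091 to -0.0034, so that every library correlated best with its own number. Deviations cancel within a state by construction, so the negative values are tied to the positive ones and are not separate evidence of pairing. With the replicate block limma called 3374 regions higher and 4086 lower, 1 of them a member region (Sox1 region 9, 0.55, limma adjusted p = 0.0283). Counted by pairs, 3 of 29 member regions were PROLIF-only, beside 6.30% of all merged regions, and 1 was DIFF-only, beside 11.1%. The exact sign-flip test of 3 pairs, with a smallest p of 0.25, gave 0.25 for the peaks and 0.75 for the covered length of the 4 windows. Single-library regions of the 4 genes had 11 to 28 reads at the summit, where each list had a floor of 10 to 15.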
